A study of Mus musculus with 12 samples.

Results

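The xenobiotic detoxification enzymes are the genes of 4 families: the cytochromes P450 of families 1 to 4, the glutathione S-transferases (GST), the sulfotransferases (SULT) and the UDP-glucuronosyltransferases (UGT). They were chosen by symbol, as protein-coding rows of the count table whose name in GENCODE M21 begins with Cyp1 to Cyp4, Gst with a class letter, Sult, or Ugt1 to Ugt3. The rule found 143 of the 43432 genes in the table: 80 cytochromes P450, 22 GST, 21 SULT and 20 UGT genes. Of these, 128 had at least 1 read in any of the 12 libraries and 15 had none. After a filter on low counts 81 were tested, and the 62 that were not tested stayed at or below 4.76 CPM in every library. CPM is the reads of a gene per 1000000 reads, with the library size scaled by TMM, a normalisation between libraries.

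Expression was measured by RNA sequencing of sorted epithelial cells from Flare25 mice, an IL-25 reporter strain whose IL-25-producing cells carry a red fluorescent protein. Live single EpCAM+ cells of the gallbladder (GB) and the proximal small intestine (SI) were split by the reporter into an IL-25+ and an IL-25- gate. The 4 groups were IL-25+ gallbladder, IL-25- gallbladder, IL-25+ small intestine and IL-25- small intestine, with 3 libraries each. All mice carried the reporter. The labels of all 6 gallbladder libraries list an agent written as HDM AF647, given 1 day before collection, and no small intestine library lists it, while the protocol field of all 12 says homeostasis. Tissue and that label cannot be told apart in any comparison between tissues. The labels give no age, sex or number of mice and do not state whether the replicate libraries of a group stem from different animals. The p-values below therefore measure the spread between these libraries, which may be technical.

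Detoxification of foreign compounds and of many endogenous lipids runs in phases. Cytochromes P450 oxidise the substrate, GST, SULT and UGT enzymes then attach glutathione, sulfate or glucuronic acid, and efflux pumps export the product. Enterocytes and the biliary epithelium are both known sites of this chemistry, and tuft cells, the main epithelial source of IL-25, are rare chemosensory cells that are better known for making eicosanoids and acetylcholine.

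Totals ran from 23703449 to 64736650 counts. On the scaled library sizes used for CPM, 3 counts, the limit a count of 0 allows, corresponded to 0.0421 to 0.122 CPM in a library. Such limits, bounds and ratio intervals cover counting error only. Mitochondrially encoded genes took 7.13 to 8.83% of counts in IL-25+ gallbladder, 11.2 to 25% in IL-25- gallbladder, 12.1 to 17.2% in IL-25+ small intestine and 26.6 to 34.9% in IL-25- small intestine. The summed level of 12 tuft markers was 23915 to 25442 CPM in IL-25+ gallbladder against 52.6 to 205 CPM in IL-25- gallbladder, and 32160 to 39392 CPM in IL-25+ small intestine against 96.8 to 259 CPM in IL-25- small intestine. The summed level of 12 hepatocyte markers was 26.6 to 48.8 CPM in IL-25+ gallbladder against 254 to 473 CPM in IL-25- gallbladder, and 114 to 332 CPM in IL-25+ small intestine against 969 to 2188 CPM in IL-25- small intestine, so that the IL-25+ mean was 12.4 and 11.8% of the IL-25- mean. Ttr held most of that sum in gallbladder (153, 273 and 468 CPM in IL-25- libraries) and Cps1, which enterocytes also express, most of it in small intestine. Serpina1b was at 5.52, 10.3 and 8.07 CPM and Serpina1c at 6.20, 13.0 and 4.85 CPM in IL-25- small intestine. In IL-25+ small intestine both were at or below 0.189 CPM. Alb reached at most 2.83 CPM in any library, Apoa2 2.64, Apoh 1.77 and Serpina1a 0.305 CPM, and Fgb, Ahsg, Hp and Fga at most 0.160 CPM. The part of such cells in the results was not tested. One gallbladder library stood apart: IL-25- gallbladder 1 summed to 1171 CPM over 13 enterocyte markers, against 196 and 276 CPM in IL-25- gallbladder 2 and 3, and to 353 CPM over 8 enteroendocrine markers, against 4.49 and 4.22 CPM.

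The first comparison asked which detoxification enzymes distinguish IL-25+ from IL-25- cells within each tissue. In the gallbladder most of the tested members were lower in IL-25+ cells: 43 of 81 fell and 3 rose, with a median log2 fold change of -3.41 over the 81 (-3.20 with the 6 genes at 0 counts in IL-25+ cells set to their bound). Among all 16636 genes tested 26.8% were called, 12.4% higher and 14.4% lower, and the median log2 fold change was -0.15. In the small intestine 29 of 81 fell and 4 rose, with a median of -1.73, against 27.2% of all genes called, 14.5% higher and 12.8% lower, and an all-gene median of -0.07. The all-gene balance in small intestine went the other way with another scaling of library size (RLE, 2119 higher and 2513 lower) and in DESeq2 (2640 and 3408), against 2405 and 2124 here. A call is an adjusted p below 0.05 in edgeR's quasi-likelihood test with Benjamini-Hochberg adjustment over all 16636 genes. The small intestine count of 33 was 20 without IL-25+ small intestine 2 and 18 without IL-25+ small intestine 3. The groups did not overlap for 52 of 81 members in gallbladder and 56 of 81 in small intestine, against 41.3 and 49.3% of all genes. In pooled cells, fewer cells of a type and less RNA per cell cannot be told apart.

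Summed over all 143 members, the level was 972, 1353 and 1205 CPM in IL-25+ gallbladder 1 to 3 and 5237, 5930 and 8790 CPM in IL-25- gallbladder 1 to 3. It was 1599, 1299 and 1308 CPM in IL-25+ small intestine and 2459, 4311 and 3285 CPM in IL-25- small intestine. The IL-25+ and IL-25- ranges did not overlap in either tissue, and the IL-25+ mean stood at 17.7% of the IL-25- mean in gallbladder and at 41.8% in small intestine. IL-25- gallbladder therefore held the highest summed level of the 4 groups, while both IL-25+ groups lay between 972 and 1599 CPM.

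Some cell type marker lists moved with these differences, and others went the other way. The 13 enterocyte markers, all detected in every library, summed to 4825 to 7001 CPM in IL-25+ small intestine against 16808 to 26644 CPM in IL-25- small intestine, so that the IL-25+ mean was 30.04% of the IL-25- mean. The 12 gallbladder and cholangiocyte markers summed to 2475 to 2705 CPM in IL-25+ gallbladder against 7462 to 8209 CPM in IL-25- gallbladder, or 32.6%. At least 11 of 12 were detected there. Epcam, the marker of the sort, was at 1604, 1604 and 1522 CPM in IL-25+ against 639, 525 and 629 CPM in IL-25- gallbladder. It went against most of the list and held most of the IL-25+ sum. Krt23 was also higher in IL-25+ gallbladder, at 193, 275 and 223 CPM against 104, 68.2 and 37.5 CPM. Muc5b overlapped between these gates, and the others were lower in IL-25+ gallbladder. The 8 goblet markers summed to 127 to 535 CPM in IL-25+ small intestine against 4418 to 59718 CPM in IL-25- small intestine. In gallbladder the IL-25+ mean of this list was 13.8% of the IL-25- mean. The gallbladder and cholangiocyte list went the other way in small intestine, at 151.55% of the IL-25- mean. The T cell and intraepithelial lymphocyte list did so in gallbladder (3787%) and in small intestine (2340%), with Ptprc holding most of its IL-25+ sum. The part of these marker lists in the lower detoxification levels of IL-25+ cells was not tested. The summed detoxification enzymes stood at 17.7% in gallbladder and at 41.8% in small intestine. These shares cannot be ranked against the marker sums, which depend on the genes listed.

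**Figure D1:**
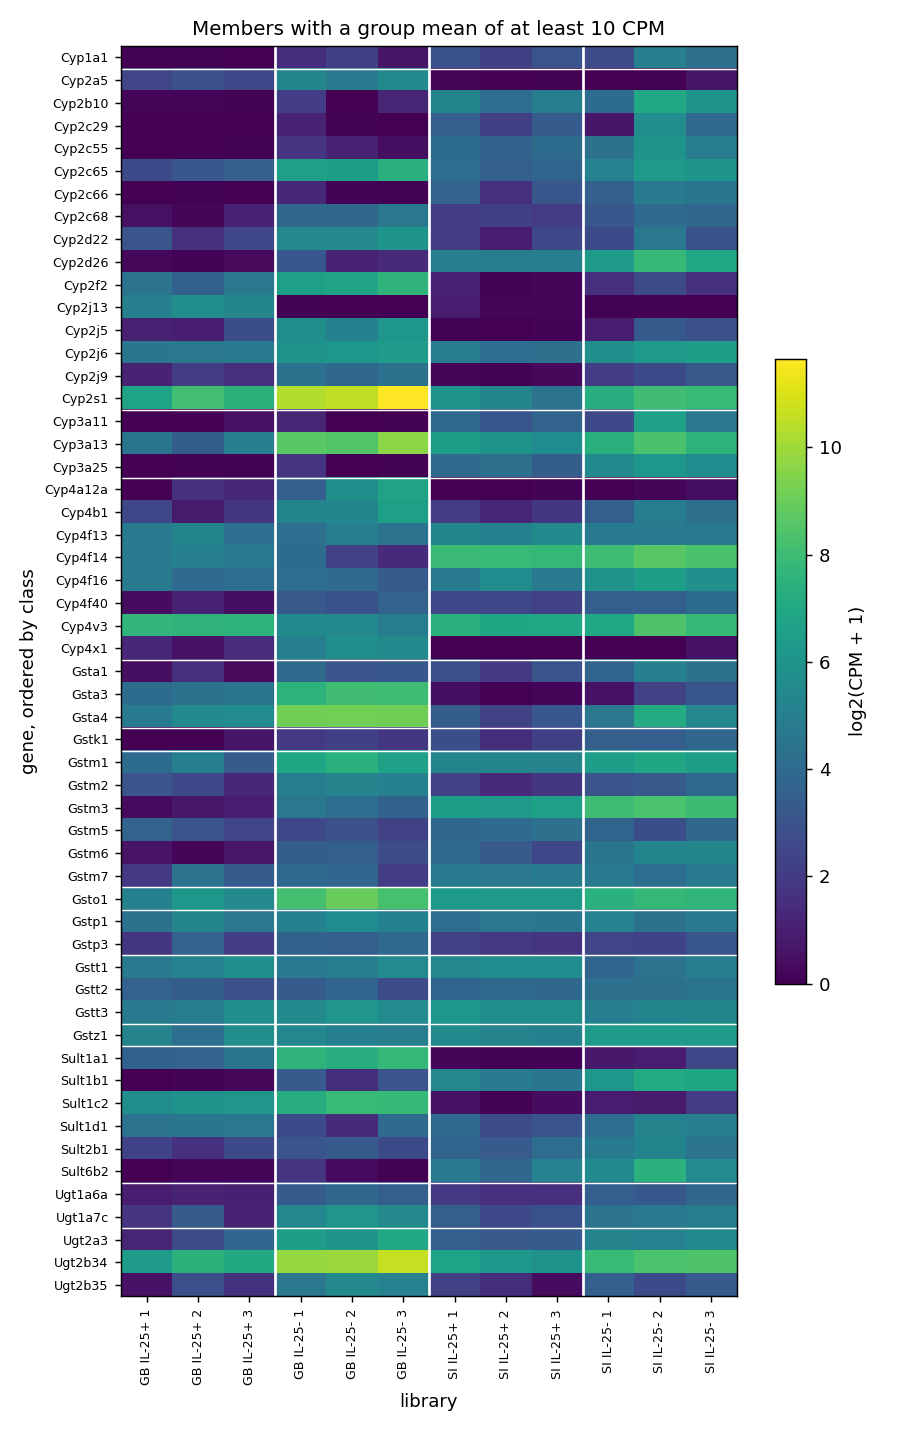
Level of the 55 members with a mean of at least 10 CPM in 1 or more groups, as log2(CPM + 1) by colour, with 1 row per gene ordered by class and 1 column per library. IL-25- gallbladder is brightest for Cyp2s1, Ugt2b34 and Gsta4, Cyp2j13 is bright only in the 3 IL-25+ gallbladder columns, and Cyp4f14 and Gstm3 are bright in the 6 small intestine columns.

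The 26 members that fell in both tissues came from every family. Their log2 fold changes ran from -5.89 to -1.49 in gallbladder and from -6.96 to -1.32 in small intestine. Of the 26, 20 had the larger decrease in gallbladder. The log2 fold change was also the lower one in gallbladder for 57 of all 81 tested members and for 8912 of all 16636 genes. A further 17 fell only past the gallbladder threshold and 3 (Cyp2e1, Cyp4f15 and Gstz1) only past that of the small intestine. Cyp2j13 was the only member called higher in both tissues, Cyp4v3 and Cyp4f14 were called higher in gallbladder alone, and Gstt1, Sult4a1 and Sult6b1 in small intestine alone. No member was called in opposite directions, and 29 were called in neither tissue. The shares of all genes called in both tissues, in 1 or in neither were not computed, so these counts have no background beside them. Across the 81 tested members the log2 fold changes in gallbladder and in small intestine had a Spearman rho of 0.45, against 0.50 across all genes tested.

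**Figure D2:**
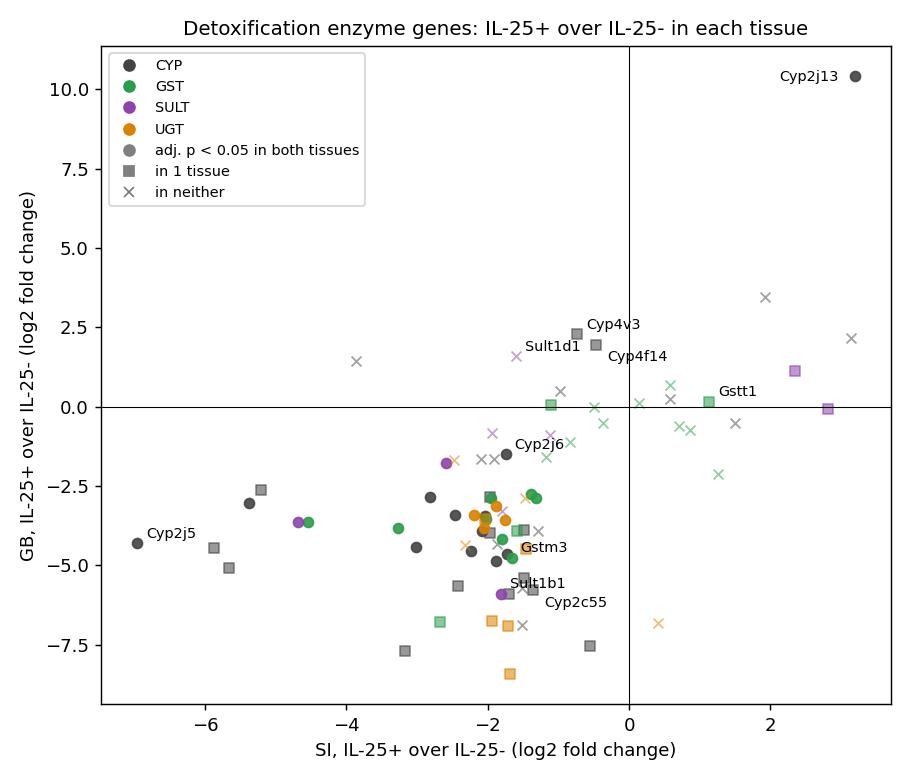
Log2 fold change of IL-25+ over IL-25- cells in small intestine (horizontal) and gallbladder (vertical), with 1 point for each of the 81 tested members. Colours give the family, and circles, squares and crosses mark members called in both tissues, in 1 or in neither. Most points lie at the lower left, and Cyp2j13 lies alone at the upper right.

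Among the cytochromes P450, the CYP2J genes split by direction. CYP2J enzymes oxidise arachidonic acid and other unsaturated fatty acids to epoxides and alcohols as well as acting on drugs. The 8 mouse genes lie side by side on the minus strand of chromosome 4 in GRCm38, from Cyp2j13 (ENSMUSG00000028571, 96027534 to 96077546) through Cyp2j6 (96516138 to 96553661) and Cyp2j9 (96568429 to 96591578) to Cyp2j5 (96628773 to 96664154). The promoters of these 4 genes are shown because neighbouring genes of 1 cluster went in opposite directions. They are RefSeq windows of GRCm38.p6, from 250 bases before to 50 after the start site, read 5′ to 3′ on the minus strand: chr4:96077491-96077790 for Cyp2j13, chr4:96553602-96553901 for Cyp2j6, chr4:96591436-96591735 for Cyp2j9 and chr4:96664070-96664369 for Cyp2j5. Capitals mark the motif matches.
Cyp2j13: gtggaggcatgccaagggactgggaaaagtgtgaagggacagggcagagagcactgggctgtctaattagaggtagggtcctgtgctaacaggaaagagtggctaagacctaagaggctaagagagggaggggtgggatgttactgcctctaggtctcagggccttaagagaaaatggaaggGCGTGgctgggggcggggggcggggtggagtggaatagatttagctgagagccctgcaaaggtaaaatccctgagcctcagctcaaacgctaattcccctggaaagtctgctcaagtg
Cyp2j6: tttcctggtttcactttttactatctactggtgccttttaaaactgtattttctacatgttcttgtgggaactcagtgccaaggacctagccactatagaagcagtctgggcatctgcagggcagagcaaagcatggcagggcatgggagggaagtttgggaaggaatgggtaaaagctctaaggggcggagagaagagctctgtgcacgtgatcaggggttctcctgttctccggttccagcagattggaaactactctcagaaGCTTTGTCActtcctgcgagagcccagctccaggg
Cyp2j9: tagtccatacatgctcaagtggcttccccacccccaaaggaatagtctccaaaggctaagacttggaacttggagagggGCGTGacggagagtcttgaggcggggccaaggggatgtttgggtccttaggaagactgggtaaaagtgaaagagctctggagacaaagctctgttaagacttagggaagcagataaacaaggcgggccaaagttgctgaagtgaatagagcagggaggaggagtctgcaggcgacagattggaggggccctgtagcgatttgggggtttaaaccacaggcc
Cyp2j5: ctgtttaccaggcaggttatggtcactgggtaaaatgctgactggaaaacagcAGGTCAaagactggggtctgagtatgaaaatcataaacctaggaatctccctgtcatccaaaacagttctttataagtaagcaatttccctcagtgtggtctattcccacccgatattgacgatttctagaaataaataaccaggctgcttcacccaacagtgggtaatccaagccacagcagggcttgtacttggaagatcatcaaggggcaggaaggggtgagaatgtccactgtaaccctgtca

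In these windows 3 motifs were searched on both strands. They were GCGTG, the core of the AHR (aryl hydrocarbon receptor) site, TGACNNNGC, the core of the antioxidant response element bound by NRF2, and AGGTCA, a nuclear receptor half-site. The motifs were searched by their letters alone, and overlap between them was not considered. Cyp2j13 held GCGTG at -68 from the start site and Cyp2j9 held it at -171, Cyp2j6 held TGACNNNGC on the opposite strand at 16, and Cyp2j5 held AGGTCA at -197. Of 138 windows that matched 120 of the 143 members, 19.6% held GCGTG, 6.52% TGACNNNGC and 23.2% AGGTCA, against 32.4, 12.4 and 16.3% of 32851 windows of the same length. A match describes letters only.

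Cyp2j13 was read 1119, 1377 and 1458 times in IL-25+ gallbladder 1 to 3, against 4, 0 and 0 times in IL-25- gallbladder, or 32.5, 51.1 and 39.3 CPM in IL-25+ against 0.0561, 0 and 0 CPM in IL-25- gallbladder. In small intestine it was read 23, 3 and 4 times in IL-25+ and 2, 1 and 1 times in IL-25- libraries. All 3 IL-25+ gallbladder libraries were high and each of the other 9 was below 1 CPM. The log2 fold change was 10.42 ± 1.05 in gallbladder (SE, edgeR adjusted p = 1.13e-05), and it was called under every alternative. In small intestine it was 3.19 ± 0.94 (edgeR adjusted p = 0.0227), on levels of 0.868, 0.120 and 0.162 CPM in IL-25+ against 0.0593, 0.0334 and 0.0254 CPM in IL-25- libraries, and the call was lost without IL-25+ small intestine 1 (adjusted p = 0.184), IL-25- small intestine 2 (0.0600) or IL-25- small intestine 3 (0.0794). Only 0.148% of the 50-base windows of Cyp2j13 recur in another gene.

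The other expressed CYP2J genes went the other way. Cyp2j6 was at 23.2, 24.5 and 27.8 CPM in IL-25+ gallbladder against 59.8, 68.4 and 83.9 CPM in IL-25- gallbladder, and at 29.7, 17.9 and 18.6 CPM in IL-25+ small intestine against 54.4, 76.1 and 91.6 CPM in IL-25- small intestine. Neither pair of groups overlapped, and the gene fell by 1.49 ± 0.27 in gallbladder and fell by 1.75 ± 0.28 in small intestine on the log2 scale (edgeR adjusted p = 0.00131 and 0.000446). Cyp2j5 was at 1.07, 0.965 and 5.87 CPM in IL-25+ gallbladder against 54.9, 33.7 and 67.8 CPM in IL-25- gallbladder, a log2 fold change of -4.30 ± 0.91 (edgeR adjusted p = 0.00396). In small intestine Cyp2j5 had 3 counts over the IL-25+ group against 546 over the IL-25- group, a level 134-fold lower (95% interval 45.7 to 654, edgeR adjusted p = 0.00106, and 272-fold without IL-25+ small intestine 3). Cyp2j9 fell by 3.03 ± 0.63 in gallbladder and by 5.38 ± 0.74 in small intestine (edgeR adjusted p = 0.00305 and 0.000158). Summed over the 8 genes, CYP2J reached 58.1, 80.1 and 74.9 CPM in IL-25+ gallbladder against 135, 117 and 172 CPM in IL-25- gallbladder, and Cyp2j13 was its largest member in each IL-25+ gallbladder library.

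**Figure D3:**
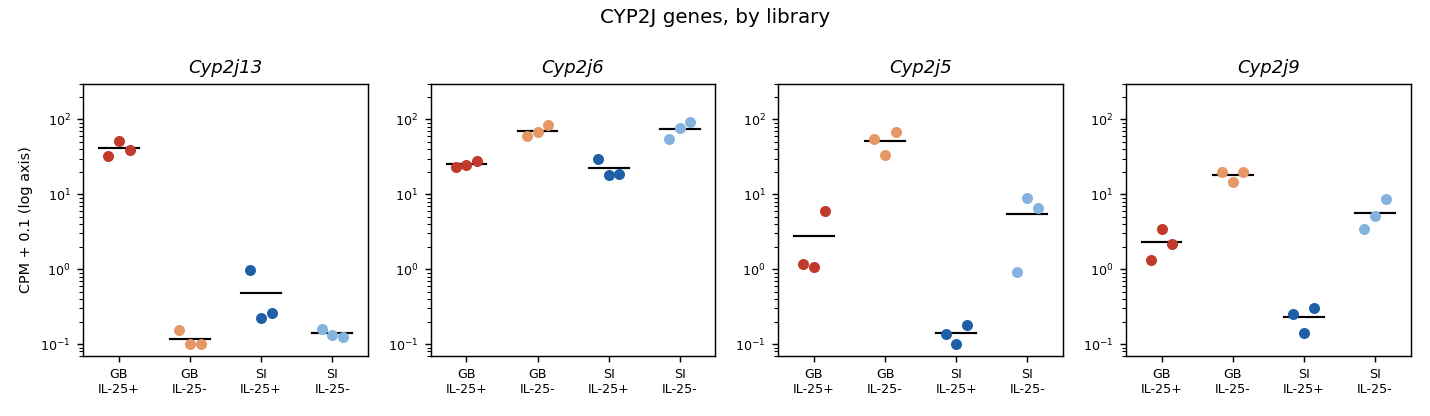
Level of Cyp2j13, Cyp2j6, Cyp2j5 and Cyp2j9 in each library, as CPM + 0.1 on a log axis, with points for libraries and a line at each group mean. The 3 IL-25+ gallbladder libraries of Cyp2j13 lie near 40 CPM with all others below 1 CPM, while the other 3 genes are lower in IL-25+ than in IL-25- cells of both tissues.

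Within the rest of the CYP2 family, 11 members besides Cyp2j5, Cyp2j6 and Cyp2j9 were called lower in 1 or both tissues, and none rose. Cyp2s1 (ENSMUSG00000040703, chromosome 7, 25802475 to 25816913), an epithelial enzyme induced through the aryl hydrocarbon receptor, had the highest mean CPM of all members in IL-25- gallbladder. It was at 106, 277 and 176 CPM in IL-25+ gallbladder against 1289, 1504 and 3221 CPM in IL-25- gallbladder, and at 61.6, 38.0 and 20.8 CPM in IL-25+ small intestine against 160.3, 266 and 239.7 CPM in IL-25- small intestine. No IL-25+ library reached an IL-25- library of its own tissue. Cyp2s1 fell by 3.43 ± 0.50 in gallbladder and by 2.47 ± 0.48 in small intestine (edgeR adjusted p = 0.000395 and 0.00280). Per kilobase of exon, Cyp2s1 was at 406 CPM in IL-25- gallbladder and at 37.7 CPM in IL-25+ gallbladder, where it ranked second among members in both.

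The CYP2C genes make epoxides of arachidonic acid and hydroxylate drugs and steroids. Cyp2c65, the most abundant of them in gallbladder, was at 5.11, 7.91 and 10.6 CPM in IL-25+ gallbladder against 96.6, 91.7 and 169 CPM in IL-25- gallbladder, a decrease of 3.92 ± 0.41 on the log2 scale (edgeR adjusted p = 1.68e-05). Small intestine levels were 18.3, 10.3 and 12.6 CPM in IL-25+ cells against 34.6, 75.8 and 64.3 CPM in IL-25- cells and the gene fell by 2.09 ± 0.38 there (edgeR adjusted p = 0.00135). Both pairs of groups stayed apart, and 20.6% of the windows of Cyp2c65 recur in other genes, Cyp2c66 among them. Cyp2c55 had 2 counts in IL-25+ gallbladder against 216 in IL-25- gallbladder, a level 78.3-fold lower (interval 21.4 to 651, edgeR adjusted p = 0.000761). Of the 216 counts, 166 lay in IL-25- gallbladder 1, and the ratio without that library was 38.1. Both IL-25+ counts lay in IL-25+ gallbladder 3, without which the level was at least 32.5-fold lower. In small intestine Cyp2c55 was at 16.1, 11.3 and 16.3 CPM in IL-25+ and 19.9, 62.1 and 29.8 CPM in IL-25- cells, a difference of -1.35 ± 0.64 that did not pass the test (edgeR adjusted p = 0.136). Cyp2c29 and Cyp2b10, the classical target of the nuclear receptor CAR in mouse liver, did not pass the test of the gates in either tissue.

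Several CYP2 forms of the airway and liver were readable in the gallbladder. Cyp2f2, which activates naphthalene in mouse lung, was at 20.4, 11.1 and 23.7 CPM in IL-25+ gallbladder against 96.9, 109.8 and 189 CPM in IL-25- gallbladder (log2 fold change -2.84 ± 0.70, edgeR adjusted p = 0.0102). Cyp2a5, the mouse coumarin hydroxylase, was at 4.47, 6.38 and 4.71 CPM in IL-25+ gallbladder against 39.4, 28.2 and 44.9 CPM in IL-25- gallbladder (-2.85 ± 0.79, edgeR adjusted p = 0.0167), a call that was lost without IL-25+ gallbladder 1 (0.0525) or IL-25- gallbladder 3 (0.0518). The groups did not overlap for either gene. Cyp2d22 fell by 3.45 ± 0.72 in gallbladder (edgeR adjusted p = 0.00319). Cyp2d26, the leading CYP2 form of the small intestine per kilobase of exon, was at 31.0, 28.6 and 30.9 CPM in IL-25+ small intestine against 84.0, 220.4 and 122.6 CPM in IL-25- small intestine. It fell by 2.24 ± 0.61 there (edgeR adjusted p = 0.0174), but the call was lost without any one of the 3 IL-25+ libraries (adjusted p 0.0568 to 0.0676) or without IL-25- small intestine 2 (0.0633). Cyp2e1, the ethanol-oxidising P450 that is abundant in liver, stayed at or below 4.51 CPM in every library, and its call in small intestine was lost under 5 alternatives.

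CYP1 and CYP3 were low in IL-25+ gallbladder. Cyp1a1, the classical target of the aryl hydrocarbon receptor and the only CYP1 gene tested, had 3 counts over the IL-25+ gallbladder libraries against 277 over the IL-25- ones, a level 66.9-fold lower (interval 22.7 to 327, edgeR adjusted p = 0.00118). With 1 library left out the ratio ran from 41.7 (without IL-25+ gallbladder 3) to 131 (without IL-25+ gallbladder 1). The small intestine libraries held 6.75, 3.65 and 7.22 CPM in IL-25+ and 5.43, 33.0 and 18.8 CPM in IL-25- libraries. Those small intestine groups overlapped, and the difference of -1.70 ± 0.78 did not pass the test (edgeR adjusted p = 0.127). Cyp3a13 (ENSMUSG00000029727, chromosome 5, 137892932 to 137921619), a CYP3A monooxygenase of drugs and steroids, was at 22.0, 9.87 and 30.7 CPM in IL-25+ gallbladder against 403, 356 and 794 CPM in IL-25- gallbladder. It fell by 4.63 ± 0.49 on the log2 scale (edgeR adjusted p = 2.62e-05). Small intestine levels were 87.8, 64.8 and 49.3 CPM in IL-25+ and 166, 319 and 186 CPM in IL-25- cells (-1.73 ± 0.43, edgeR adjusted p = 0.0107, and 0.0520 without IL-25+ small intestine 3). None of the windows of Cyp3a13 recurs elsewhere, so this CYP3A gene can be read apart from its relatives.

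The CYP4 family, mostly omega-hydroxylases of fatty acids and eicosanoids, had overlapping summed levels in the gallbladder gates: 305, 286 and 255 CPM in IL-25+ gallbladder and 192, 260 and 338 CPM in IL-25- gallbladder. Of its 12 tested members 2 rose and 6 fell. Cyp4v3 (ENSMUSG00000079057, chromosome 8, 45304944 to 45333216), whose human counterpart is mutated in a crystalline retinal dystrophy, was the most abundant member in IL-25+ gallbladder. It was at 204, 193 and 182 CPM there against 45.1, 45.5 and 28.7 CPM in IL-25- gallbladder and rose by 2.28 ± 0.32 (edgeR adjusted p = 0.000183). Levels in small intestine were 175, 114 and 122 CPM in IL-25+ and 126, 336 and 223 CPM in IL-25- libraries, with overlapping groups (-0.74 ± 0.31, edgeR adjusted p = 0.0928).

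Cyp4f14, which inactivates leukotriene B4 in mouse, was at 26.8, 31.3 and 28.2 CPM in IL-25+ gallbladder against 16.4, 3.93 and 1.62 CPM in IL-25- gallbladder. The difference of 1.96 ± 0.62 was called (edgeR adjusted p = 0.0371), but the call was lost under 12 alternatives, among them leaving out any of 10 single libraries, with adjusted p up to 0.115. Levels in small intestine were 248.8, 238 and 215 CPM in IL-25+ cells against 258, 397 and 313 CPM in IL-25- cells, a difference that did not pass the test (-0.46 ± 0.59, edgeR adjusted p = 0.605). Its relative Cyp4f13 did not pass the test in gallbladder either, at 26.8, 37.8 and 17.8 CPM in IL-25+ and 17.9, 30.6 and 20.7 CPM in IL-25- gallbladder (0.25 ± 0.31, edgeR adjusted p = 0.580). The CYP4A, CYP4B and CYP4X forms were lower in IL-25+ gallbladder. Cyp4b1 fell by 4.43 ± 0.69 there and fell by 3.01 ± 0.65 in small intestine (edgeR adjusted p = 0.000389 and 0.00405). Cyp4x1 was at 1.51, 0.483 and 1.83 CPM in IL-25+ gallbladder against 31.7, 55.03 and 45.1 CPM in IL-25- gallbladder (-5.10 ± 1.00, edgeR adjusted p = 0.00326). Cyp4a10, a fatty acid hydroxylase under PPAR alpha control, was at 0 in IL-25+ gallbladder against 75 counts in IL-25- gallbladder, at least 18.1-fold lower (edgeR adjusted p = 0.0153), a bound of 10.3 without IL-25- gallbladder 3, 11.3 without IL-25+ gallbladder 3 and 28.4 without IL-25- gallbladder 1.

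**Figure D4:**
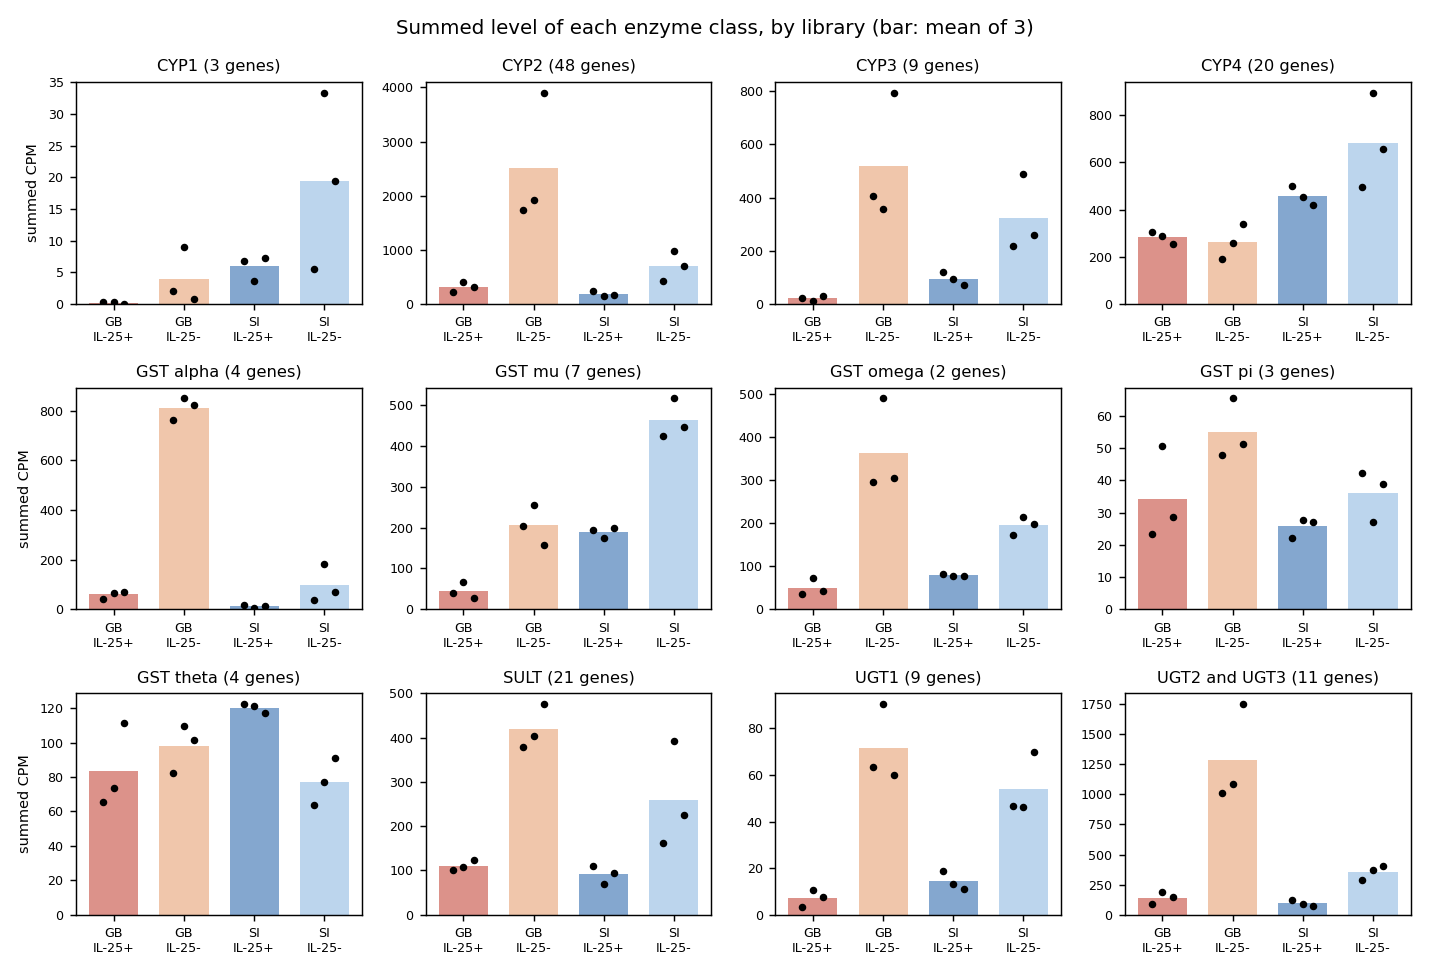
Summed CPM of the members of 12 enzyme classes in each library (points) with the mean of 3 libraries as a bar, IL-25+ and IL-25- gallbladder at the left and IL-25+ and IL-25- small intestine at the right of each panel. IL-25+ gallbladder is below IL-25- gallbladder in the CYP2, CYP3, GST alpha, GST omega, SULT, UGT1 and UGT2 and UGT3 panels, and its range overlaps that of IL-25- gallbladder in the CYP4, GST pi and GST theta panels.

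The glutathione S-transferases differed by class. All 4 alpha genes, which reduce and conjugate products of lipid peroxidation, fell in gallbladder and 3 in small intestine. Gsta4 (ENSMUSG00000032348, chromosome 9, 78182774 to 78209349), the form most active on hydroxynonenal, was at 26.4, 44.7 and 48.6 CPM in IL-25+ gallbladder against 559.9, 569 and 552 CPM in IL-25- gallbladder. Small intestine libraries held 9.92, 3.89 and 7.91 CPM in IL-25+ against 23.8, 144 and 40.8 CPM in IL-25- cells. Gsta4 fell by 3.81 ± 0.62 in gallbladder and fell by 3.26 ± 0.61 in small intestine (edgeR adjusted p = 0.00106 and 0.00258), and at 443 CPM per kilobase of exon it was the highest member of IL-25- gallbladder. Gsta3 was at 16.6, 20.04 and 21.4 CPM in IL-25+ against 186, 271 and 262 CPM in IL-25- gallbladder (-3.63 ± 0.78, edgeR adjusted p = 0.00605). Gsta1 and Gsta2 cannot be read apart from their copies, with 90.5 and 49.8% of their windows recurring elsewhere.

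The mu class, which conjugates epoxides and other electrophiles, had 4 of 7 members called lower in each tissue, with none called higher. Gstm3 (ENSMUSG00000004038, chromosome 3, 107963696 to 107969283) was at 0.261, 0.668 and 0.996 CPM in IL-25+ gallbladder against 23.5, 17.7 and 11.1 CPM in IL-25- gallbladder, and at 87.4, 78.4 and 101 CPM in IL-25+ small intestine against 263, 330.4 and 251 CPM in IL-25- small intestine. It fell by 4.75 ± 0.41 in gallbladder and by 1.66 ± 0.35 in small intestine (edgeR adjusted p = 3.68e-06 and 0.00320), and 28.8% of its windows recur elsewhere. Gstm1 fell by 2.76 ± 0.38 in gallbladder and fell by 1.39 ± 0.36 in small intestine (edgeR adjusted p = 0.000153 and 0.0121). Gstm5 and Gstm7 were not called in any comparison of gates: Gstm5 was at 12.1, 7.53 and 4.47 CPM in IL-25+ and 4.72, 6.498 and 3.70 CPM in IL-25- gallbladder (0.69 ± 0.48, edgeR adjusted p = 0.310). Gsto1 (chromosome 19, 47854970 to 47864790), an omega form that reduces dehydroascorbate and arsenic compounds, was at 34.0, 71.9 and 43.4 CPM in IL-25+ gallbladder against 296, 488 and 304 CPM in IL-25- gallbladder. It was at 80.7, 78.1 and 76.2 CPM in IL-25+ small intestine against 172, 214 and 199 CPM in IL-25- small intestine and fell by 2.87 ± 0.28 in gallbladder and fell by 1.32 ± 0.27 in small intestine (edgeR adjusted p = 9.97e-06 and 0.00282).

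The pi, theta and zeta classes were led by Gstp1, Gstt1 and Gstz1. Gstp1, the pi form of many epithelia, was at 19.9, 38.1 and 24.0 CPM in IL-25+ and 33.3, 50.4 and 34.1 CPM in IL-25- gallbladder (-0.52 ± 0.32, edgeR adjusted p = 0.254), though 33.7% of its windows recur elsewhere. Gstt1, which dehalogenates small solvents, was at 27.4, 34.6 and 54.4 CPM in IL-25+ and 27.6, 29.4 and 47.6 CPM in IL-25- gallbladder (0.15 ± 0.35, edgeR adjusted p = 0.789). In small intestine Gstt1 was at 41.7, 50.5 and 49.4 CPM in IL-25+ against 13.1, 20.6 and 30.9 CPM in IL-25- cells, and the gene rose by 1.13 ± 0.36 (edgeR adjusted p = 0.0312). That call was lost without IL-25+ small intestine 2 or 3 or IL-25- small intestine 1 or 2 (adjusted p 0.0790 to 0.116), and with another scaling of library size (0.0537). Gstz1, an enzyme of tyrosine breakdown, was at 36.2, 18.4 and 51.6 CPM in IL-25+ and 41.5, 31.9 and 28.6 CPM in IL-25- gallbladder (0.06 ± 0.31, edgeR adjusted p = 0.919). Levels in small intestine were 46.6, 36.5 and 33.7 CPM in IL-25+ against 82.4, 86.5 and 82.9 CPM in IL-25- cells, and the gene fell by 1.11 ± 0.32 (edgeR adjusted p = 0.0205, and 0.0726 or 0.0821 without IL-25+ small intestine 2 or 3).

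Of the 9 sulfotransferases tested, 3 fell in both tissues and none rose in gallbladder. They were Sult1a1, Sult1b1 and Sult1c2, of which Sult1c2 lost its gallbladder call under 5 alternatives (adjusted p up to 0.0780, that value without IL-25+ gallbladder 1). Sult1a1, the phenol sulfotransferase, was at 11.3, 11.8 and 22.4 CPM in IL-25+ gallbladder against 189, 154 and 218 CPM in IL-25- gallbladder (-3.62 ± 0.61, edgeR adjusted p = 0.000863). Sult1b1 (chromosome 5, 87513339 to 87538195), which sulfates phenols and thyroid hormones, was at 0.0290, 0.0742 and 0.188 CPM in IL-25+ gallbladder against 9.28, 1.86 and 7.31 CPM in IL-25- gallbladder. Small intestine levels were 42.4, 26.6 and 22.8 CPM in IL-25+ against 67.9, 137 and 118 CPM in IL-25- cells. Sult1b1 fell by 5.89 ± 0.71 in gallbladder (edgeR adjusted p = 5.59e-05) and by 1.81 ± 0.52 in small intestine (edgeR adjusted p = 0.0210). The small intestine call was lost without IL-25+ small intestine 2 (0.0806) or 3 (0.0894) or IL-25- small intestine 2 (0.0670) or 3 (0.0566). Its neighbour Sult1d1 (87554645 to 87569027), a catecholamine sulfotransferase, was at 20.7, 23.2 and 23.8 CPM in IL-25+ and 5.11, 1.60 and 15.8 CPM in IL-25- gallbladder, without overlap (1.59 ± 0.65, edgeR adjusted p = 0.0861). Sult4a1, a form best known from brain, and Sult6b1 were called higher in IL-25+ small intestine, at 4.98, 6.94 and 5.07 CPM against 0.890, 1.27 and 0.254 CPM for Sult4a1 (2.82 ± 0.84, edgeR adjusted p = 0.0241) and at 7.06, 7.26 and 5.797 CPM against 0.979, 1.84 and 1.12 CPM for Sult6b1 (2.35 ± 0.77, edgeR adjusted p = 0.0370). Both calls were lost under several alternatives, with adjusted p up to 0.0829 for Sult4a1 and 0.119 for Sult6b1, including without IL-25- small intestine 1 (0.0654 and 0.119).

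The UGT genes were lower in IL-25+ cells wherever they were called. In gallbladder 5 of 6 UGT1 and 4 of 7 UGT2 and UGT3 genes fell, and in small intestine 2 and 2 fell. Ugt2b34 (ENSMUSG00000029260, chromosome 5, 86889767 to 86906937) dominated the family: it was at 83.3, 177 and 135 CPM in IL-25+ gallbladder against 891, 970.4 and 1577 CPM in IL-25- gallbladder. Levels in small intestine were 108, 74.4 and 62.7 CPM in IL-25+ against 239.6, 322 and 345 CPM in IL-25- cells. Ugt2b34 fell by 3.12 ± 0.33 in gallbladder and fell by 1.89 ± 0.31 in small intestine (edgeR adjusted p = 1.65e-05 and 0.000653). The UGT1A genes share their last exons, and 52.1 to 80.2% of the windows of the 6 tested recur in other genes, so their sum is given: 3.34, 10.8 and 7.51 CPM in IL-25+ gallbladder against 63.4, 90.4 and 60.1 CPM in IL-25- gallbladder, and 18.8, 13.4 and 11.2 CPM in IL-25+ small intestine against 46.5, 46.1 and 69.8 CPM in IL-25- small intestine. Neither pair overlapped. Ugt1a1, the bilirubin-conjugating form, was at or below 7.29 CPM in every library.

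Reads of 50 bases limit what can be said of close relatives. Of the 143 members, 61 had over 10% of their 50-base windows recurring in another gene, 27 of them among the 81 tested. Among the members that fell, 24 of 43 in gallbladder and 22 of 29 in small intestine had 10% or less. Cyp3a13, Gsta4, Gsto1, Sult1b1 and Sult1d1 had none.

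Whether the difference between gates itself differed between tissues was tested as an interaction, the gallbladder log2 difference minus that of the small intestine. It was called for 9 of 81 members, 3 higher and 6 lower, against 9.23% of all genes, 3.63% higher and 5.6% lower, a share near that background. The count was 20 with DESeq2 and 4 without IL-25- small intestine 1. The 4 members called under every alternative were Cyp4v3 (3.02 ± 0.44, edgeR adjusted p = 0.000935), Gstm3 (-3.09 ± 0.51, 0.00217), Sult1b1 (-4.08 ± 0.87, 0.0100) and Cyp3a13 (-2.90 ± 0.61, 0.0104). For Cyp4v3 the gate difference was the more positive one in gallbladder, and for the other 3 the decrease was the deeper one there. Cyp2j13 (7.23 ± 1.58, 0.0115) and Gsto1 (-1.55 ± 0.38, 0.0204) were called but lost without IL-25- small intestine 1 (0.0769 and 0.0557). Sult1d1 (3.19 ± 0.92, 0.0453), Cyp2c55 (-4.43 ± 1.19, 0.0338) and Cyp2c65 (-1.83 ± 0.52, 0.0448) were each lost under 11 alternatives, with adjusted p up to 0.134, 0.111 and 0.107.

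The second pair of comparisons set gallbladder against small intestine within each gate. Among IL-25+ cells 39 of 81 members were called, 14 higher and 25 lower in gallbladder, against 23.7% of all genes, 10.5% higher and 13.1% lower, and their groups did not overlap for 51 of 81, against 41.9%. Among IL-25- cells 36 were called, 17 higher and 19 lower in gallbladder, against 24.6% of all genes, 13.0% higher and 11.7% lower. Their groups did not overlap for 56 of 81, against 43.5% of all genes, and a fit of those 2 groups alone called 41, 24 higher and 17 lower. The same tissue was higher in both gates for 24 members: 10 were higher in gallbladder and 14 in small intestine. None was called in opposite directions, 15 were called only among IL-25+ cells, 12 only among IL-25- cells and 30 in neither. The matching shares of all genes were not computed, so these counts cannot be read as particular to the members. The 2 comparisons set no library against another in common, but both come from the same fit over all 12 libraries and are not independent.

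The 10 members higher in gallbladder in both gates were Cyp2a5, Cyp2f2, Cyp2j5, Cyp2s1, Cyp4x1, Gsta3, Gsta4, Sult1a1, Sult1c2 and Sult5a1. Sult1c2, a SULT1C phenol sulfotransferase, was at 51.3, 62.2 and 66.5 CPM in IL-25+ gallbladder against 0.415, 0.0401 and 0.324 CPM in IL-25+ small intestine, and at 155, 234 and 224 CPM in IL-25- gallbladder against 0.831, 0.768 and 3.12 CPM in IL-25- small intestine. The log2 differences were 7.82 ± 0.70 and 6.9998 ± 0.64 (edgeR adjusted p = 1.17e-05 and 1.30e-05), and the groups lay far apart. Sult1a1 was at 0.113, 0.0401 and 0.0811 CPM in IL-25+ and at 0.712, 0.901 and 4.70 CPM in IL-25- small intestine, and the tissue differences were 7.53 ± 0.85 and 6.46 ± 0.70 (edgeR adjusted p = 6.47e-05 and 4.96e-05). Gsta3 was at 0.340, 0 and 0.162 CPM in IL-25+ and 0.475, 3.80 and 7.77 CPM in IL-25- small intestine (6.80 ± 1.01 and 5.89 ± 0.88, edgeR adjusted p = 0.000801 and 0.000765). Cyp4x1 was at 0 in all 3 IL-25+ small intestine libraries, so that the 133 counts of IL-25+ gallbladder were at least 34.2-fold higher (22.3-fold without IL-25+ small intestine 1).

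The 14 members higher in small intestine in both gates were Cyp1a1, Cyp2b10, Cyp2c29, Cyp2c55, Cyp2c66, Cyp2d26, Cyp3a11, Cyp3a25, Cyp4f14, Gstm3, Gstm6, Sult1b1, Sult2b1 and Sult6b2. Cyp3a11, the PXR-induced form that is the usual mouse counterpart of human CYP3A4, was at 0.0290, 0 and 0.431 CPM in IL-25+ gallbladder against 14.7, 7.62 and 11.9 CPM in IL-25+ small intestine (-6.11 ± 1.65, edgeR adjusted p = 0.0217, and up to 0.0798 over the alternatives, that value without IL-25+ gallbladder 1). Cyp3a25 was at 0.0290, 0.0371 and 0.0538 CPM in IL-25+ gallbladder against 15.96, 18.6 and 9.97 CPM in IL-25+ small intestine (-8.40 ± 1.54, edgeR adjusted p = 0.00247). Cyp2c29 had no count in IL-25+ gallbladder against 596 in IL-25+ small intestine, at least 257-fold lower (edgeR adjusted p = 0.0167, and 0.0524 or 0.0532 without IL-25+ gallbladder 1 or 3, with a bound of 167 or 160). The 13 enterocyte markers summed to 4825 to 7001 CPM in IL-25+ small intestine against 34.6 to 64.8 CPM in IL-25+ gallbladder. The part of enterocytes in these tissue differences was not tested. In IL-25- gallbladder 1, the library with enterocyte markers, Cyp3a25 was at 2.41 CPM against 0 and 0.0650 CPM in IL-25- gallbladder 2 and 3, and Sult6b2 at 2.34 CPM against 0.266 and 0.0325 CPM. That library was not the highest for Cyp1a1 (1.91 CPM against 3.60 and 0.617 CPM), Gstm6 or Sult2b1. The tissue difference of Gstm3 among IL-25- cells was -4.01 ± 0.38 (edgeR adjusted p = 1.30e-05) and that of Cyp4f14 was -5.44 ± 0.71 (edgeR adjusted p = 0.000340).

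**Figure D5:**
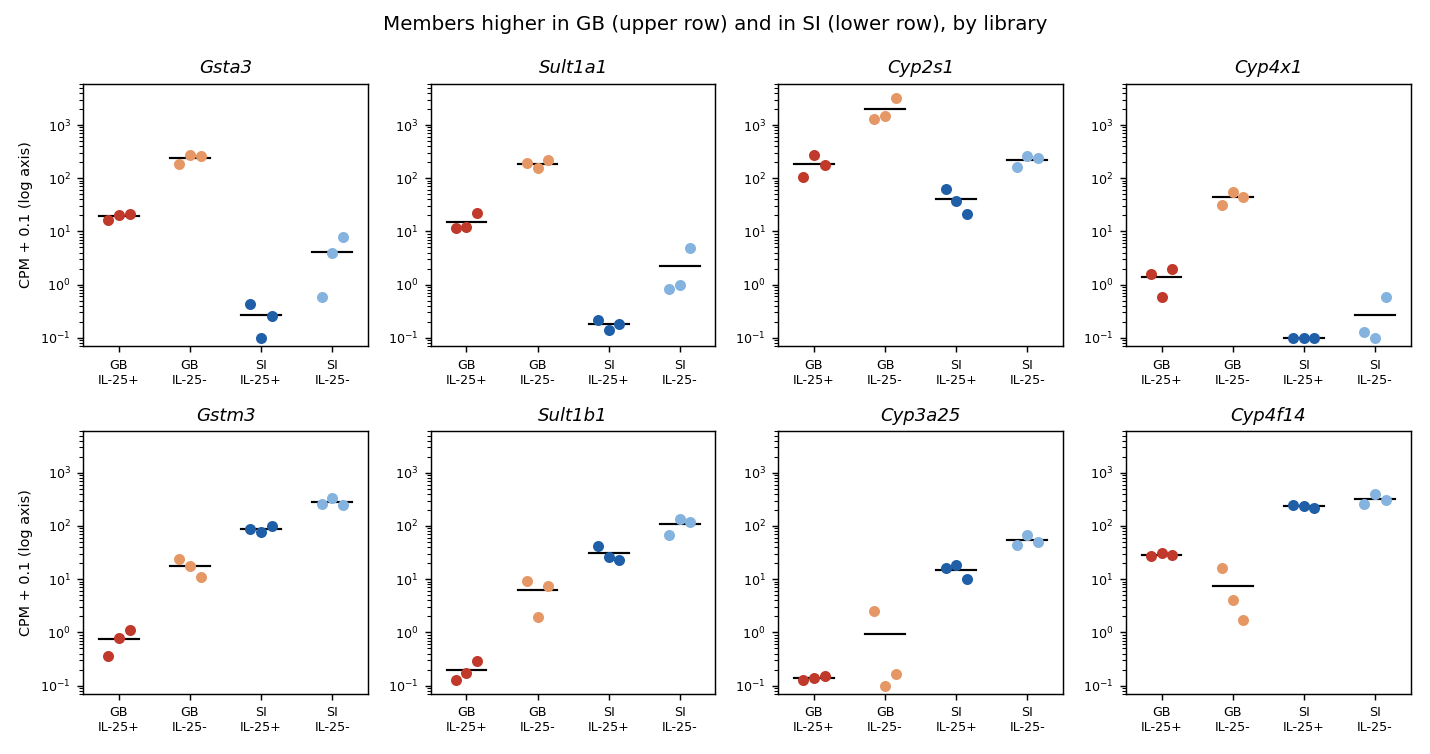
Level of 4 members higher in gallbladder (upper row) and 4 higher in small intestine (lower row) in each library, as CPM + 0.1 on a log axis, with a line at each group mean. In Gsta3 and Sult1a1 all gallbladder points lie above all small intestine points, and Cyp3a25 is near 0 in all gallbladder libraries other than the first of the IL-25- group.

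Per kilobase of exon the leading forms differed between tissues. In IL-25+ gallbladder Cyp4v3 led at 50.7 CPM per kilobase, followed by Cyp2s1 at 37.7 and Sult1c2 at 32.5, and in IL-25+ small intestine Cyp4f14 led at 96.8, followed by Gstm3 at 67.8 and Gsto1 at 38.7. In IL-25- gallbladder Gsta4 led at 443 CPM per kilobase, Cyp2s1 followed at 406 and Ugt2b34 at 266, and in IL-25- small intestine Gstm3 led at 215, Cyp4f14 followed at 133 and Gsto1 at 96.5. Gsto1 stood among the first 8 members in all 4 groups.

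The other genes of the pathway were taken from 6 lists, some of which share genes. Gclc, Gclm, Gsr, Slc7a11, G6pdx and Pgd stood on the lists of NRF2 targets and of cofactor supply for conjugation. Nqo1 and Ephx1 stood on those of NRF2 targets and other detoxification enzymes, and Abcc1 on those of NRF2 targets and efflux transporters. The counts of these lists are therefore not independent. Among 17 tested receptors and regulators, 2 rose and 3 fell in IL-25+ gallbladder, and 2 rose and 4 fell in IL-25+ small intestine, with medians of -0.61 in both. These were 29.4 and 35.3% of the list, against 26.8 and 27.2% of all genes. Nfe2l2, which encodes NRF2, the activator of antioxidant and conjugation genes, was at 172, 223 and 268 CPM in IL-25+ gallbladder against 571, 386 and 1142 CPM in IL-25- gallbladder, and at 167, 174 and 118 CPM in IL-25+ small intestine against 409, 454 and 446 CPM in IL-25- small intestine. It fell by 1.66 ± 0.33 in gallbladder and fell by 1.51 ± 0.33 in small intestine (edgeR adjusted p = 0.00218 and 0.00419). Nr1h4, the bile acid receptor FXR, fell by 3.38 ± 0.60 in gallbladder and fell by 2.73 ± 0.59 in small intestine (edgeR adjusted p = 0.00111 and 0.00416), and Nr1i2, the xenobiotic receptor PXR, fell by 1.12 ± 0.26 in gallbladder (edgeR adjusted p = 0.00704). In small intestine Pparg rose by 2.07 ± 0.42, while Vdr fell by 1.35 ± 0.25 and Rxra fell by 1.55 ± 0.33 (edgeR adjusted p = 0.00255, 0.00128 and 0.00337).

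Of 20 tested NRF2 targets outside the 4 families, 1 rose and 11 fell in IL-25+ gallbladder, with a median of -1.21, and 3 rose and 6 fell in IL-25+ small intestine, with a median of -0.43. The called shares were 60% in gallbladder and 45% in small intestine, against 26.8 and 27.2% of all genes. Hmox1, which breaks down haem, was at 7.38, 7.05 and 6.22 CPM in IL-25+ gallbladder against 21.8, 23.2 and 24.1 CPM in IL-25- gallbladder and fell by 1.74 ± 0.44 (edgeR adjusted p = 0.00981). Levels in small intestine were 36.9, 71.1 and 54.4 CPM in IL-25+ against 2.08, 0.634 and 0.584 CPM in IL-25- cells, and the gene rose by 5.62 ± 0.52 (edgeR adjusted p = 6.13e-06). Its interaction was -7.36 ± 0.67 (edgeR adjusted p = 4.29e-05), a call kept under every alternative. Prdx1, a peroxidase, fell by 2.27 ± 0.24 in gallbladder and fell by 1.57 ± 0.23 in small intestine (edgeR adjusted p = 1.60e-05 and 0.000276). Osgin1 fell by 2.88 ± 0.44 in gallbladder (edgeR adjusted p = 0.000357), and Ftl1, a ferritin chain, rose by 1.64 ± 0.27 in small intestine (edgeR adjusted p = 0.000597).

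The supply of cofactors for conjugation had 1 of 18 tested genes higher and 9 lower in IL-25+ gallbladder, and 1 higher and 4 lower in IL-25+ small intestine. The called share was 55.6% in gallbladder, against 26.8% of all genes, and at 27.8% in small intestine it was near the 27.2% of all genes. Gclc, the catalytic subunit that starts glutathione synthesis, was at 146, 322 and 224 CPM in IL-25+ gallbladder against 878, 1253 and 1098 CPM in IL-25- gallbladder and fell by 2.22 ± 0.32 (edgeR adjusted p = 0.000214). Small intestine libraries held 169.8, 147 and 149 CPM in IL-25+ and 75.7, 170.1 and 104 CPM in IL-25- cells (0.41 ± 0.31, edgeR adjusted p = 0.345), and the interaction was -2.64 ± 0.44 (edgeR adjusted p = 0.00219). Gss, which completes glutathione, fell by 1.60 ± 0.26 in gallbladder and fell by 1.05 ± 0.26 in small intestine (edgeR adjusted p = 0.000568 and 0.00863). Papss2, which makes the sulfate donor for SULT enzymes, went against the list: it was at 781, 878 and 793 CPM in IL-25+ gallbladder against 180.3, 87.7 and 234 CPM in IL-25- gallbladder and rose by 2.29 ± 0.28 (edgeR adjusted p = 6.32e-05). In small intestine Papss2 was at 932, 910.4 and 889 CPM in IL-25+ and 1330.2, 1777 and 1587 CPM in IL-25- cells, a difference of -0.78 ± 0.27 (edgeR adjusted p = 0.0474) whose call was lost under 13 alternatives, with adjusted p up to 0.124.

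Among 15 tested electron donors and haem synthesis genes, 2 rose and 3 fell in gallbladder and 2 rose and 2 fell in small intestine, or 33.3 and 26.7% of the list against 26.8 and 27.2% of all genes. Cyb5r3, a cytochrome b5 reductase, was at 3862, 2229 and 2715 CPM in IL-25+ gallbladder against 884, 1280.3 and 551 CPM in IL-25- gallbladder and rose by 1.70 ± 0.30 (edgeR adjusted p = 0.000990). Of 11 tested efflux transporters, 1 rose and 3 fell in gallbladder and 2 rose and 1 fell in small intestine, or 36.4 and 27.3% of the list against 26.8 and 27.2% of all genes. The small intestine shares of these lists were near the background. Abcg2, a pump for sulfate conjugates and drugs, was at 0.494, 5.01 and 0.996 CPM in IL-25+ gallbladder against 21.6, 38.3 and 20.3 CPM in IL-25- gallbladder (-3.64 ± 0.69, edgeR adjusted p = 0.00173). The other decreases in gallbladder were Abcc2 (edgeR adjusted p = 0.0154) and Abcc6 (0.0477), which were at 27.6 and 0.786 CPM in the IL-25- library with enterocyte markers, against 4.96 and 1.69 CPM for Abcc2 and 0 CPM for Abcc6 in the others. Both calls were lost without IL-25+ gallbladder 1 (adjusted p = 0.0602 and 0.105) or 2 (0.0548 and 0.0908). Abcc5 rose by 1.61 ± 0.32 in gallbladder (edgeR adjusted p = 0.00237), and Abcc3, a basolateral pump for glucuronides and bile acids, rose in small intestine to 424, 405 and 459 CPM in IL-25+ cells, against 141, 228 and 147 CPM in IL-25- cells (1.32 ± 0.20, edgeR adjusted p = 0.000357).

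The list of other detoxification enzymes had 9 of 52 tested genes higher and 20 lower in IL-25+ gallbladder, and 8 higher and 15 lower in IL-25+ small intestine. The called shares were 55.8 and 44.2%, against 26.8 and 27.2% of all genes. Enzymes of aldehyde and alcohol oxidation were among both the increases and the decreases. Aldh2, the mitochondrial acetaldehyde dehydrogenase, was at 2210.1, 1664 and 1606 CPM in IL-25+ gallbladder against 172, 219 and 175 CPM in IL-25- gallbladder, and at 2076, 2676 and 3109 CPM in IL-25+ small intestine against 96.2, 121 and 104 CPM in IL-25- small intestine. It rose by 3.28 ± 0.22 and by 4.61 ± 0.23 (edgeR adjusted p = 3.99e-07 and 3.99e-08). Adh1, an alcohol and retinol dehydrogenase, rose by 6.35 ± 0.61 and by 3.15 ± 0.53 (edgeR adjusted p = 1.84e-05 and 0.00104), and Aldh3a2, a fatty aldehyde dehydrogenase, by 2.32 ± 0.22 and by 2.47 ± 0.22 (edgeR adjusted p = 7.21e-06 and 4.69e-06). Aldh1a1, a retinal dehydrogenase, was at 25.96, 31.6 and 36.5 CPM in IL-25+ gallbladder against 388, 359 and 297 CPM in IL-25- gallbladder and fell by 3.47 ± 0.45 there (edgeR adjusted p = 0.000110). In small intestine it fell by 1.58 ± 0.42 (edgeR adjusted p = 0.0138, and 0.0549, 0.0601 and 0.0545 without IL-25+ small intestine 2, IL-25+ small intestine 3 and IL-25- small intestine 2). Aldh1a7 fell by 4.16 ± 0.44 and Adh7 by 4.17 ± 0.82 in gallbladder (edgeR adjusted p = 1.87e-05 and 0.00213). In IL-25+ cells the level of Aldh2 alone exceeded the summed level of all 143 members in each gallbladder and small intestine library.

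Enzymes of lipid mediators on the same list moved in both directions. Hpgds, the prostaglandin D2 synthase that by sequence is a sigma-class GST outside the symbol rule, was at 313, 413 and 414 CPM in IL-25+ gallbladder against 4.69, 0.945 and 0.195 CPM in IL-25- gallbladder, and at 306, 273 and 218 CPM in IL-25+ small intestine against 6.35, 6.77 and 6.78 CPM in IL-25- small intestine. It rose by 7.55 ± 0.91 and by 5.32 ± 0.82 (edgeR adjusted p = 0.000172 and 0.000871). Mgst3, a microsomal glutathione transferase of eicosanoid metabolism, rose by 1.93 ± 0.27 and by 2.41 ± 0.28 (edgeR adjusted p = 0.000204 and 3.81e-05). Ephx2, the soluble epoxide hydrolase, was at 5.37, 2.38 and 1.64 CPM in IL-25+ gallbladder against 34.2, 60.4 and 40.0 CPM in IL-25- gallbladder, and fell by 3.84 ± 0.46 in gallbladder and fell by 1.87 ± 0.42 in small intestine (edgeR adjusted p = 5.47e-05 and 0.00553). Mgst2, another microsomal glutathione transferase, fell by 1.74 ± 0.29 in small intestine (edgeR adjusted p = 0.000764). Among cytochromes P450 of other families, Cyp51 of cholesterol synthesis rose by 0.94 ± 0.23 and by 1.92 ± 0.23 (edgeR adjusted p = 0.00831 and 5.93e-05). Cyp27a1, the sterol hydroxylase of the acidic bile acid pathway, was at 76.3, 50.6 and 58.4 CPM in IL-25+ gallbladder against 1.52, 2.42 and 1.14 CPM in IL-25- gallbladder and rose by 5.19 ± 0.45 (edgeR adjusted p = 3.67e-06). Levels in small intestine were 3.70, 2.29 and 1.74 CPM in IL-25+ against 8.19, 11.3 and 14.3 CPM in IL-25- cells, and the gene fell by 2.13 ± 0.40 (edgeR adjusted p = 0.00157), with an interaction of 7.31 ± 0.60 (edgeR adjusted p = 1.96e-05).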

How the data were processed

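Read counts per gene were used as the authors deposited them, as whole numbers for 43432 Ensembl gene IDs in 12 libraries. Per the labels' protocols, libraries were made with Nextera XT and sequenced as single 50-base reads. The submitters' processing notes name STAR 2.7.2b, DESeq2 1.26 and GRCm38. The read counter, its strand setting and the annotation release are not given in the sources used here, so reads of overlapping genes on opposite strands may not be told apart. Columns were matched to samples by name, and 11 columns that match no sample here were not used.

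Symbols came from GENCODE M21, which matched 42548 IDs. The 884 unmatched IDs held at most 0.119% of any library and stayed in the fits. The members and gene lists were chosen with earlier results of these data known. Libraries of one group differed by more than sampling noise, so none is a resampled copy of another. Each was treated as 1 replicate, though whether they stem from different animals is not known.

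Genes were filtered with filterByExpr (minimum count 10), leaving 16636. They were scaled by TMM and tested with edgeR 4.0.16 (R 4.3.3), a robust quasi-likelihood fit of the 4 groups over all 12 libraries, with Benjamini-Hochberg adjustment and a threshold of 0.05. CPM is the count divided by the TMM-scaled library size and multiplied by 1000000. The SE is the absolute log2 fold change over the square root of F. Where a group held no count, a fold is a bound against 3 counts over that group. Where it held 1 to 3 counts, the ratio has an exact binomial 95% interval. Genes named were members with a group mean of at least 10 CPM, called members whose groups did not overlap (up to 30 per comparison, by adjusted p), members called in the interaction, and the leading member of each class per kilobase of exon. From each list the 4 lowest adjusted p per gate comparison were eligible, with those called against the majority of their list. Others were named after their values were seen. One gene of the regulator list is counted but not reported here by name.

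On simulated counts for IL-25+ against IL-25- gallbladder (16217 genes), the fit recovered 16% of genes changed 2-fold, 64% at 4-fold, 90% at 8-fold and 90% at 16-fold, with 5 false calls among 135. Shared windows are 50-base stretches of exon sequence that occur in more than 1 gene. Alternatives were RLE scaling, DESeq2 1.42.0, no filter or a stricter one, the compared groups alone, a replicate block (also nested in tissue), fits without mitochondrial genes, without each library in turn, and without IL-25- small intestine 3 and gallbladder 1 together. Intervals came from scipy 1.17.1 and figures from matplotlib 3.10.9, under Python 3.11.15.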

Additional observations from a re-analysis of the deposited data

Results flagged for a closer look

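The results here were singled out because the difference between IL-25+ and IL-25- cells in gallbladder differed from that in small intestine by the interaction test (edgeR adjusted p over all genes tested). Each value is the gallbladder log2 difference minus that of the small intestine. Among the enzymes of the 4 families it was 7.23 for Cyp2j13, 3.02 for Cyp4v3, 3.19 for Sult1d1, -3.09 for Gstm3, -4.08 for Sult1b1, -2.90 for Cyp3a13, -1.55 for Gsto1, -4.43 for Cyp2c55 and -1.83 for Cyp2c65.

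Among the regulators it was 1.44 for Hnf4a (edgeR adjusted p = 0.0226, and up to 0.0625 over the alternatives), 1.78 for Vdr (0.00558) and -2.68 for Pparg (0.0106). Among NRF2 targets and cofactor genes it was -7.36 for Hmox1, -2.38 for Ftl1 (0.00162), -2.48 for Osgin1 (0.0185, and up to 0.0586), -2.64 for Gclc, -1.29 for Gclm (0.0207, and up to 0.0592) and 3.07 for Papss2 (0.000362). Among electron donors and transporters it was 1.53 for Cyb5r3 (0.0344, lost under 10 alternatives and up to 0.0837) and -1.32 for Abcc3 (0.0105). Among other detoxification enzymes it was 7.31 for Cyp27a1, 3.21 for Adh1 (0.0147, and 0.0662 with no low-count filter), 3.79 for Akr1c13 (0.00437), -1.33 for Aldh2 (0.00977), -2.97 for Cbr3 (0.00910), -6.24 for Adh7 (0.00342), -2.65 for Aldh1a7 (0.0102) and 1.53 for Mgst2 (0.0332, lost under 11 alternatives and up to 0.0919). Groups of 3 libraries were not tested for outlying samples.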

How the results depend on the processing

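Under these alternatives no named gene changed direction in a comparison where it was called. The balance of higher and lower calls did turn in some comparisons. Between the small intestine gates it was 2119 higher and 2513 lower of all genes with RLE scaling, against 2405 and 2124. Between IL-25- tissues it was 24 members higher and 17 lower with the compared groups alone, against 17 and 19. Of the members called, 37 of 46 between the gallbladder gates, 15 of 33 between the small intestine gates, 28 of 39 between IL-25+ tissues, 22 of 36 between IL-25- tissues and 4 of 9 in the interaction kept their call under every alternative. The counts for these comparisons with 1 library left out ran from 38 to 47, 18 to 35, 33 to 42, 27 to 40 and 4 to 12, and without IL-25- small intestine 3 and IL-25- gallbladder 1 together they were 42, 26, 40, 27 and 7. DESeq2 called 20 members and 2633 genes of the whole table in the interaction, against 9 and 1536 with edgeR, and the cause was not tested. With RLE scaling the interaction over the whole table split into 779 higher and 743 lower, against 604 and 932 with TMM. That scaling shifted the median of all genes by 0.12 between IL-25+ tissues, by -0.12 between the small intestine gates and by 0.16 in the interaction. With replicate numbers as a block the members called were 44, 29, 40, 33 and 8. Same-numbered libraries of the gallbladder gates had correlations of 0.0188 to 0.162 and those of the small intestine gates -0.0281 to 0.0256. With 3 libraries a group, such correlations can neither show nor exclude that the numbers pair the libraries. Abcc6 gave no gallbladder value without IL-25- gallbladder 1, where its only gallbladder reads lay. Members under about 0.1 CPM are at the limit of this depth.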
